A study of Mus musculus with 22 samples.

Results

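The methionine cycle and transsulfuration enzymes were followed here as 10 genes, *Mat1a*, *Mat2a*, *Mat2b*, *Gnmt*, *Ahcy*, *Bhmt*, *Bhmt2*, *Mtr*, *Cbs* and *Cth*, chosen by matching their symbols to the rows of the deposited table of gene counts. That table held 55573 genes, of which 14062 had a mean of at least 10 counts and were tested, and all 10 enzymes were among them. The counts came from mRNA-seq of 22 livers of C57BL/6 mice, 1 library per mouse, with totals between 13751347 and 21144388 counts. Cre Chow (n = 6) and Cre MCD (n = 5) were Flcn WT/WT mice carrying Albumin-Cre, and FLCN KO Chow (n = 5) and FLCN KO MCD (n = 6) were Flcn f/f mice carrying Albumin-Cre, so that all 4 groups carried the Cre transgene. The albumin promoter that drives Cre is active in hepatocytes, and bulk liver also holds other cells. Mice received chow with 10 kcal percent fat or the MCD diet, a high fat, high sucrose diet deficient in methionine and choline, for 6 weeks from 6 weeks of age, and were 3 months old at the end. The diets differed in fat and sugar as well as in methionine and choline, and the parts of these components cannot be told apart.

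In liver, methionine adenosyltransferases turn methionine into S-adenosylmethionine (SAM), the methyl donor of the cell. Methyl transfer leaves S-adenosylhomocysteine (SAH), which is split to homocysteine. Homocysteine is either methylated back to methionine, with a methyl group from betaine or from folate, or it is drawn off through transsulfuration to cysteine. Adult hepatocytes are known for *Mat1a*, whereas *Mat2a* is the form of other tissues and of growing or dedifferentiated liver.

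Some libraries stood apart. Livers fell into 2 classes by counts of *Xist*, transcribed from the inactive X chromosome of females, and of Y-linked genes. They are called Xist-high (3 livers in each group) and Y-high (3 in Cre Chow, 2 in Cre MCD, 2 in FLCN KO Chow and 3 in FLCN KO MCD). The labels used here gave no sex, and some Xist-high livers held Y-linked reads, up to 675 counts in Cre MCD 1 and 451 in FLCN KO Chow 2, against at least 1906 in each Y-high liver. On chow the 5 Y-high livers (Cre Chow 1, 5 and 6 and FLCN KO Chow 1 and 3) were also the 5 libraries with a low uniquely mapped share in the library statistics of the study, so sex and library quality cannot be told apart on chow. The liver Cre MCD 3 held the most skeletal muscle RNA, with 8 muscle markers summing to 1924 CPM (counts scaled to the library size after TMM, a correction for library composition), against a median of 1.62 CPM in Cre Chow. Smaller sums above that median were seen in Cre MCD 4 (96.2 CPM), FLCN KO MCD 3 (41.0 CPM) and Cre MCD 1 (13.2 CPM), among others.

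*Flcn*, the targeted gene, was lower in FLCN KO livers on chow but not detectably so on MCD. *Flcn* ran from 26.1 to 40.2 CPM (median 31.8) in Cre Chow and was 24.2, 20.0, 16.7, 19.4 and 21.8 CPM in the 5 FLCN KO Chow livers, so those groups did not overlap. It was 31.7, 18.2, 39.9, 32.5 and 23.6 CPM in Cre MCD and between 17.6 and 32.6 CPM (median 26.6) in FLCN KO MCD, where the groups overlapped. The log2 fold change (log2FC) was -0.63 ± 0.171 (SE) on chow (edgeR quasi-likelihood test, adjusted p = 0.0229) and -0.16 ± 0.168 on MCD (edgeR adjusted p = 0.565). The chow call was lost by library size only, without the 5 libraries of low mapped share (-0.55, edgeR adjusted p = 0.244), within either class, and without Cre Chow 6, FLCN KO Chow 3 or FLCN KO Chow 4. The fit without those 5 libraries and the Xist-high fit hold the same chow livers. Within the Xist-high livers the value on MCD was 0.24 and within the Y-high livers -0.65 for *Flcn*. Deletion removes exon 7 only, and the counts cover all exons, so that the remaining transcript is counted too. These are RNA values, whereas the paper assessed FLCN protein by western blot in livers of chow-fed mice.

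The genes lie on 7 mouse chromosomes (GRCm38, GENCODE M21). *Mat1a* (methionine adenosyltransferase of adult liver) is at chr14:41105035-41124412, *Mat2a* (the catalytic subunit of the other form) at chr6:72432799-72439558 and *Mat2b* (its regulatory subunit) at chr11:40679314-40695203. *Gnmt* (glycine N-methyltransferase) and *Cbs* (cystathionine beta-synthase) share chromosome 17, at chr17:46725664-46729168 and chr17:31608894-31637238. *Bhmt*, *Bhmt2* and *Mtr*, which remethylate homocysteine, are all on chromosome 13, the first pair as neighbours at chr13:93616675-93637961 and chr13:93655720-93674302 and *Mtr* at chr13:12182712-12258113. *Ahcy* (SAH hydrolase) is at chr2:155059310-155074497 and *Cth* (cystathionine gamma-lyase) at chr3:157894248-157925077. Only *Mat1a* is on the plus strand. Transcripts of *Ahcy* matched the copy Gm4737 over 2083 bases at 99.7% identity, and those of *Bhmt* matched Gm5096 over 1869 bases at 99.4%. These copies held at most 74 and 124 counts in any library, against at least 5127 for *Ahcy* and 14793 for *Bhmt*, but reads that fit both a gene and its copy may be missing from either, and levels of *Ahcy* and *Bhmt* are uncertain to that extent. An antisense gene, Particl, overlaps 11.3% of the exon bases of *Mat2a* and held at most 75 counts.

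Start-site sequences were given by RefSeq (GRCm38.p6) for 8 of the 10 genes, all but *Mat1a* and *Cth*. The 250 bases upstream of the start are shown for *Mat2a* (chr6:72439557-72439806, minus strand) and *Gnmt* (chr17:46729166-46729415, minus strand), the genes with the largest rise and the largest fall on MCD described below. They are written 5′ to 3′ with CpG dinucleotides in capitals.
Mat2a: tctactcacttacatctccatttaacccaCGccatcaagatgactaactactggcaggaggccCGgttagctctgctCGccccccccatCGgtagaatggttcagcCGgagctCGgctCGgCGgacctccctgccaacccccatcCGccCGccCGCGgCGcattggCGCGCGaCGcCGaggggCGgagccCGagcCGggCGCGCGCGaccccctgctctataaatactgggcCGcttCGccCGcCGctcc
Gnmt: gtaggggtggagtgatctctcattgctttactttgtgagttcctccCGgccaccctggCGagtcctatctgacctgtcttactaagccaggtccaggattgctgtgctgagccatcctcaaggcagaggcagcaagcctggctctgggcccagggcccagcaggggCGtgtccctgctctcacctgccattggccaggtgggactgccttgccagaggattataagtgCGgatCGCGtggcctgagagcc
The *Mat2a* stretch holds 29 CpG and is 67.6% G or C, and the *Gnmt* stretch holds 6 CpG and is 60.4% G or C, against medians of 6 CpG and 52.4% over the same 250 bases upstream of 32851 starts of all genes. Over the windows from 250 bases before to 50 after the start, the ATF4 composite element (TGATGNAA, both strands) was in 3.97% of all windows and the CLEAR element of TFEB and TFE3 (TCACGTGA, a palindrome) in 0.974%. Neither was in any of the 8 windows of these enzymes, which says only that the letters are not in those windows.

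Levels of different enzymes were compared per kb of exon (CPM per kb, mean ± SD). In Cre Chow *Gnmt* led with 1772 ± 313 CPM per kb, followed by *Mat1a* with 946 ± 221 and *Bhmt* with 361 ± 123 (n = 6). *Mat2a* stood at 16.8 ± 4.25, *Mat2b* at 7.45 ± 1.03 and *Mtr* was lowest at 1.26 ± 0.139 CPM per kb. On MCD *Mat1a* led in both genotypes, with 931 in Cre MCD and 1079 CPM per kb in FLCN KO MCD. *Mat2a* moved from rank 8 of 10 on chow in both genotypes to rank 5 in Cre MCD and 7 in FLCN KO MCD. With the length of the longest transcript in place of all exons the latter rank was 6, while *Gnmt*, *Mat1a*, *Bhmt*, *Cbs*, *Mat2b* and *Mtr* kept their ranks in every group. Together the 10 mRNAs took between 0.608 and 1.06% of the counts of a library.

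**Figure D1:**
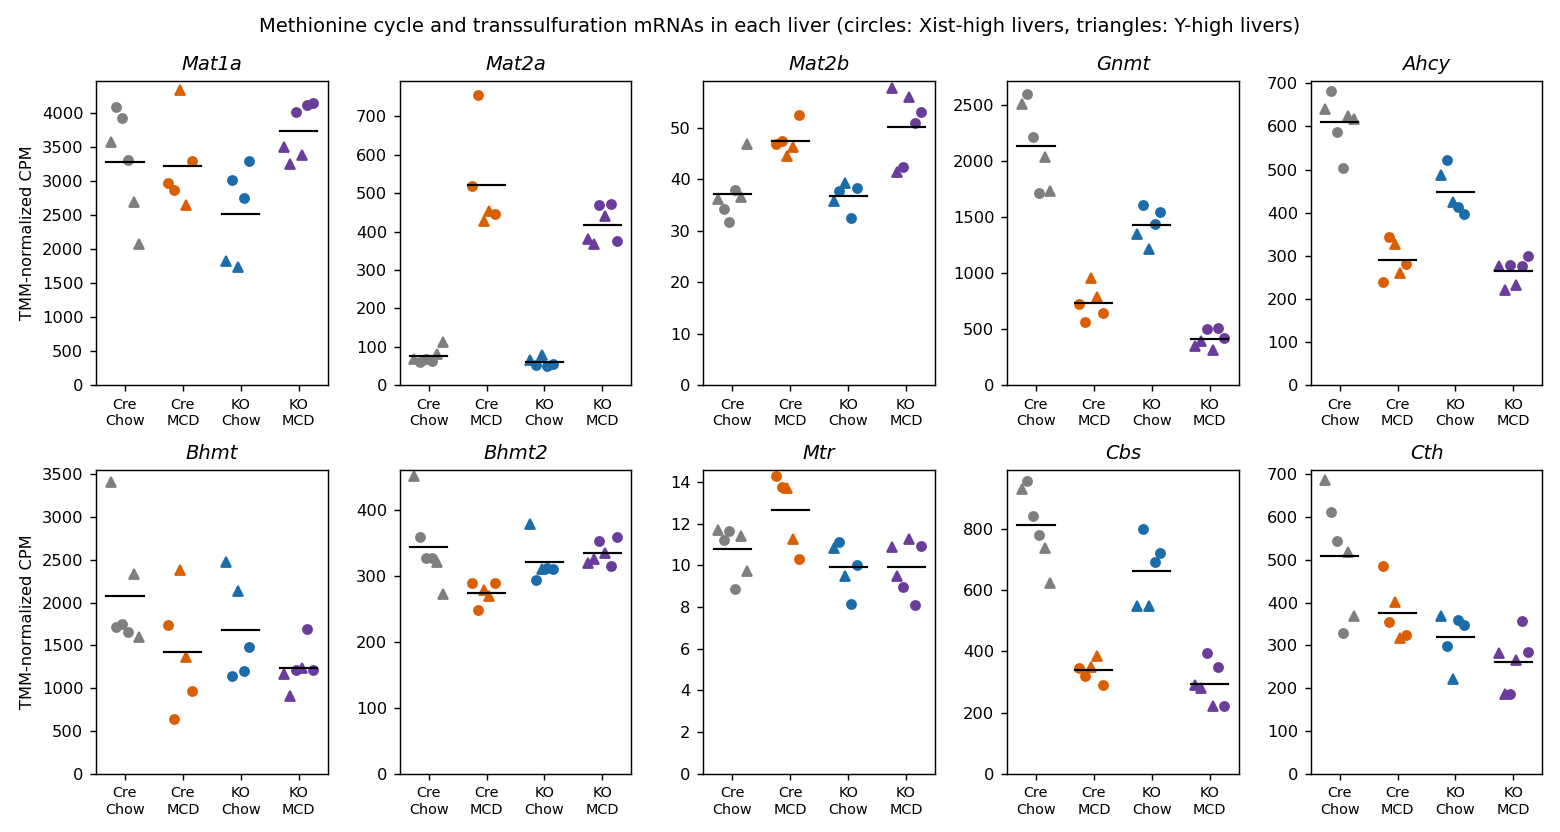
TMM-normalized CPM of the 10 enzymes (linear axes from 0) in each of the 22 livers by group, with circles for Xist-high livers, triangles for Y-high livers and a bar at the group mean. *Mat2a* lies between 49.7 and 111 CPM on chow and between 368 and 757 CPM on MCD, and the 4 groups of *Gnmt* do not overlap.

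On the MCD diet the Cre livers had more *Mat2a* and *Mat2b* mRNA and less *Gnmt*, *Ahcy*, *Cbs* and *Bhmt2*. Of the 10 enzymes 2 rose and 4 fell (edgeR, adjusted p under 0.05), where 29.3% of all tested genes rose and 28.2% fell in this comparison. In FLCN KO livers 3 rose (*Mat1a*, *Mat2a*, *Mat2b*) and 3 fell (*Gnmt*, *Ahcy*, *Cbs*), against 22.4% of all tested genes in each direction. The median log2FC of the 10 was -0.38 in Cre and -0.14 in FLCN KO, against 0.01 and 0.00 over all tested genes. Without TMM scaling, by library size only, the median of all genes was 0.43 in Cre and 0.27 in FLCN KO. The share of higher among called genes was then 81.9 and 77.1% instead of 51.0 and 49.97%.

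The methionine adenosyltransferases came first. *Mat2a* ranged from 60.7 to 111 CPM (median 67.8) in Cre Chow and was 518, 757, 427, 454 and 445 CPM in Cre MCD. Every Cre liver on MCD was above every Cre liver on chow, by a mean 6.90-fold (log2FC 2.79 ± 0.171, edgeR adjusted p = 1.96e-11). In FLCN KO Chow *Mat2a* was 65.2, 52.7, 77.4, 49.7 and 55.5 CPM, and in FLCN KO MCD it ran from 368 to 470 CPM (median 410.0). Those groups did not overlap either, and the rise was 6.94-fold (log2FC 2.79 ± 0.179, edgeR adjusted p = 8.15e-11). Of 14062 tested genes *Mat2a* had rank 392 by rise in Cre and 142 in FLCN KO. Within the Xist-high livers alone the log2FC of *Mat2a* was 3.16 in Cre and 3.06 in FLCN KO, and within the Y-high livers 2.37 and 2.45, all called. Smaller rises were seen for *Mat2b*, from 31.7 to 46.8 CPM (median 36.4) in Cre Chow to 47.0, 47.4, 44.5, 46.4 and 52.5 CPM in Cre MCD. These overlapped through Cre Chow 6 (log2FC 0.35 ± 0.0990, edgeR adjusted p = 0.00416). In FLCN KO livers *Mat2b* went from 35.8, 37.7, 39.3, 32.5 and 38.3 CPM on chow to a range of 41.4 to 57.8 CPM (median 52.0) on MCD, with no overlap (log2FC 0.45 ± 0.0998, edgeR adjusted p = 7.78e-04). In the Y-high livers alone neither *Mat2b* difference was called (0.21 and 0.44).

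*Mat1a*, the most abundant of the 3 genes, showed no detectable diet difference in Cre mice. It ran from 2081 to 4088 CPM (median 3444) in Cre Chow and was 2981, 2868, 4345, 2643 and 3303 CPM in Cre MCD (log2FC -0.02 ± 0.181, edgeR adjusted p = 0.921), with the value positive at 0.39 by library size only. Within the Xist-high Cre livers *Mat1a* was lower in each of 3 livers on MCD (at most 3303 CPM) than in each of 3 on chow (at least 3315 CPM), at -0.31 (edgeR adjusted p = 0.0712), and within the Y-high livers the value was 0.35 (edgeR adjusted p = 0.301). In FLCN KO Chow it was 1824, 3015, 1736, 2755 and 3297 CPM, and on MCD it ran from 3258 to 4152 CPM (median 3764), a log2FC of 0.57 ± 0.182 (edgeR adjusted p = 0.0143). The 2 lowest livers, FLCN KO Chow 1 and 3, were the Y-high livers with a low mapped share. Leaving out the 5 such libraries on chow gave 0.31 for *Mat1a* in FLCN KO mice (edgeR adjusted p = 0.103). That fit sets only Xist-high livers on chow against both classes on MCD. In FLCN KO MCD, *Mat1a* averaged 4100.4 CPM in Xist-high and 3384.5 CPM in Y-high livers. Within the Xist-high livers the log2FC of *Mat1a* was 0.44 (edgeR adjusted p = 0.0190), and within the Y-high livers 0.91 (edgeR adjusted p = 0.0259).

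*Gnmt*, which consumes SAM to methylate glycine, fell on MCD in both genotypes. Cre Chow ran from 1713 to 2602 CPM (median 2127), and Cre MCD livers had 723, 566, 956, 785 and 647 CPM. Their groups did not overlap (2.91-fold lower, log2FC -1.54 ± 0.154, edgeR adjusted p = 2.89e-08). FLCN KO Chow livers had 1351, 1608, 1218, 1436 and 1545 CPM, and FLCN KO MCD ran from 316 to 513 CPM (median 407). Again the diets were apart, by 3.45-fold (log2FC -1.79 ± 0.1501, edgeR adjusted p = 5.09e-09). *Ahcy*, which hydrolyses SAH and so removes the product of methyl transfer, ran from 504 to 682 CPM (median 622) in Cre Chow against 240, 343, 328, 260 and 280 CPM in Cre MCD. It was 488, 522, 425, 413 and 397 CPM in FLCN KO Chow against 221 to 299 CPM (median 276) in FLCN KO MCD. Diet groups of *Ahcy* did not overlap in either genotype, with a log2FC of -1.07 ± 0.112 in Cre (edgeR adjusted p = 5.39e-08) and -0.77 ± 0.109 in FLCN KO (edgeR adjusted p = 6.57e-06).

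**Figure D2:**
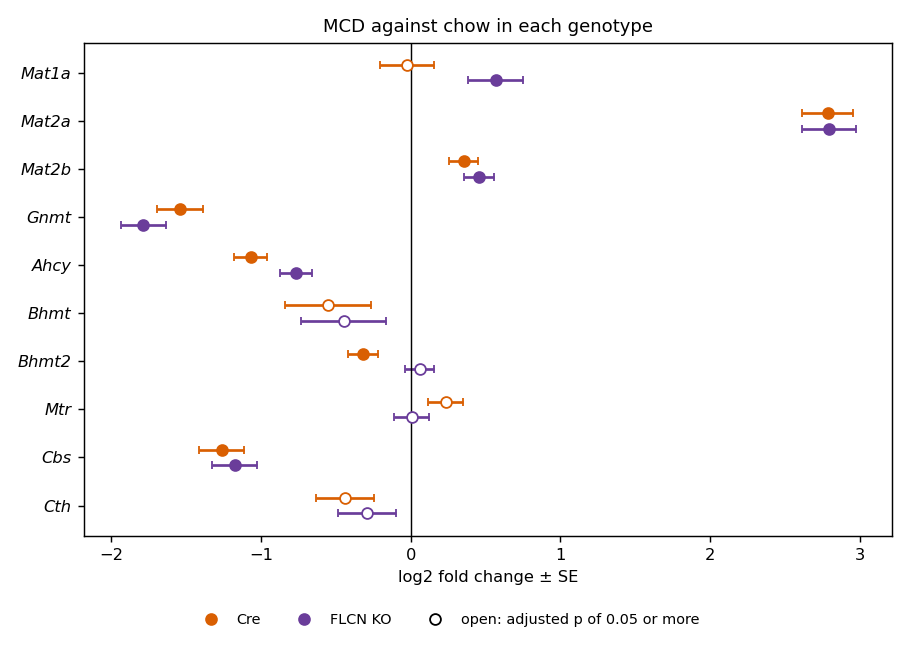
log2FC of MCD against chow (± SE, edgeR) for the 10 enzymes in Cre (orange) and FLCN KO (purple) mice, with filled points where the adjusted p was under 0.05. *Mat2a* lies at 2.79 in both genotypes, and *Gnmt*, *Ahcy* and *Cbs* lie below 0 in both.

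Of the 3 remethylating enzymes only *Bhmt2* in Cre passed the test with the diet. *Bhmt*, which takes the methyl group of betaine, varied more between livers than any other enzyme of the 10 in 3 of the 4 groups. It ran from 1601 to 3412 CPM (median 1734) in Cre Chow, was 1742, 637, 2377, 1366 and 961 CPM in Cre MCD, 2473, 1139, 2136, 1195 and 1475 CPM in FLCN KO Chow, and ran from 905 to 1688 CPM (median 1209) in FLCN KO MCD. These groups overlapped throughout. The log2FC was -0.55 ± 0.287 in Cre (edgeR adjusted p = 0.105) and -0.45 ± 0.284 in FLCN KO (edgeR adjusted p = 0.210). In Cre, *Bhmt* was called without Cre MCD 3 (-0.82, edgeR adjusted p = 0.0179) and under a block on replicate number (-0.65, edgeR adjusted p = 0.0234). In FLCN KO Chow the Y-high livers had the 2 highest values of *Bhmt*, and within classes the diet difference in FLCN KO mice was 0.11 in Xist-high livers (edgeR adjusted p = 0.787) and -1.08 in Y-high livers (edgeR adjusted p = 0.0316). Its neighbour *Bhmt2*, which uses S-methylmethionine, ran from 272 to 451 CPM (median 328) in Cre Chow and was 289, 248, 279, 270 and 289 CPM in Cre MCD, lower with overlap (log2FC -0.32 ± 0.0999, edgeR adjusted p = 0.00895), although by library size only the sign turned to 0.10. In FLCN KO Chow it was 379, 294, 311, 312 and 310 CPM, and in FLCN KO MCD between 315 and 358 CPM (median 330), which overlapped (log2FC 0.06 ± 0.0995, edgeR adjusted p = 0.656). *Mtr*, the cobalamin-dependent methionine synthase that takes the methyl group of folate, was the rarest of the mRNAs. It ran from 8.88 to 11.7 CPM (median 11.3) in Cre Chow and was 14.3, 13.7, 13.7, 11.3 and 10.3 CPM in Cre MCD (log2FC 0.23 ± 0.116, edgeR adjusted p = 0.0880). In Cre it was called without Cre MCD 5 (0.31), by library size only (0.66) and with at least 10 counts in every library. FLCN KO livers had 10.8, 11.1, 9.47, 8.16 and 10.0 CPM on chow and 8.11 to 11.3 CPM (median 10.2) on MCD (log2FC 0.01 ± 0.116, edgeR adjusted p = 0.971).

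Of the transsulfuration pair only *Cbs*, which condenses homocysteine with serine, passed the test. Its level ran from 622 to 956 CPM (median 811) in Cre Chow and was 345, 320, 350, 386 and 289 CPM in Cre MCD. In FLCN KO Chow it was 549, 800, 547, 693 and 721 CPM, and in FLCN KO MCD it ran from 220 to 395 CPM (median 285). No *Cbs* value on MCD reached a value on chow in the same genotype. The log2FC was -1.26 ± 0.152 in Cre (edgeR adjusted p = 4.07e-07) and -1.18 ± 0.148 in FLCN KO (edgeR adjusted p = 1.41e-06). *Cth*, which splits cystathionine to cysteine, ran from 330 to 685 CPM (median 531) in Cre Chow and was 486, 355, 400, 317 and 323 CPM in Cre MCD. The livers of FLCN KO mice had 368, 298, 221, 360 and 347 CPM on chow and 186 to 357 CPM (median 274) on MCD. Both pairs of diet groups overlapped, with a log2FC of -0.44 ± 0.196 in Cre (edgeR adjusted p = 0.0606) and -0.29 ± 0.194 in FLCN KO (edgeR adjusted p = 0.228). *Cth* in Cre was called in 4 fits that left out 1 liver (Cre Chow 4, Cre Chow 6, Cre MCD 1 or FLCN KO Chow 3). In the 12 other alternatives it was not called in either genotype. Its value there ran from -0.53 to -0.0153 in Cre and from -0.37 to -0.0346 in FLCN KO.

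Hepatocyte markers fell on the same diet. Of 9 markers, 8 fell in Cre and 7 in FLCN KO, with a median log2FC of -0.99 and -0.68. Over all tested genes 28.2% fell and 29.3% rose in Cre, and 22.4% did each in FLCN KO, against which the counts of all the marker lists here are to be read. Their summed level ran from 119660 to 168587 CPM in Cre Chow, 69614 to 106163 CPM in Cre MCD, 93860 to 136929 CPM in FLCN KO Chow and 65920 to 87530 CPM in FLCN KO MCD. The most abundant, *Alb*, encoding albumin, fell by 0.46 in Cre and 0.59 in FLCN KO on the log2 scale, and *Apob* did not pass the test in either. Markers of periportal hepatocytes, where *Ass1* was the most abundant, fell for 5 of 6 genes in each genotype (median log2FC -1.76 and -1.06), and markers of pericentral hepatocytes fell for 5 and 6 of 7 (median -0.94 and -1.29). The most abundant pericentral marker, *Cyp2e1*, was not among those that fell (0.20 in Cre, edgeR adjusted p = 0.326, and 0.09 in FLCN KO, edgeR adjusted p = 0.690). In Cre mice 6 of 7 stellate cell genes rose (most abundant *Dcn*, median log2FC of the list 1.28), as did 3 of 3 neutrophil genes (*S100a9*, 2.92) and 3 of 5 cholangiocyte genes (*Spp1*, 1.09). The stellate list holds *Des*, also a muscle gene, which was at 146 CPM in Cre MCD 3 against a group median of 6.96 CPM. Of 7 macrophage genes (most abundant *Cd5l*, median 0.04) 2 rose and 1 fell, near the share over all genes. In FLCN KO mice 1 of 7 stellate, 3 of 3 neutrophil, 0 of 5 cholangiocyte and 0 of 7 macrophage genes rose, and 3 macrophage genes fell. Endothelial markers, led by *Stab2*, rose for 1 and fell for 2 of 5 in Cre and fell for 3 of 5 in FLCN KO, and lymphocyte markers, led by *Cd79a*, moved for 0 of 4 in Cre and fell for 3 of 4 in FLCN KO. The 8 muscle markers, led by *Acta1*, rose in Cre for all 8 genes, with a sum between 0.820 and 96.2 CPM in the other Cre MCD livers than Cre MCD 3, and for none in FLCN KO. In these bulk samples fewer hepatocytes and less RNA per hepatocyte cannot be told apart, and the part of either in the enzyme differences was not tested.

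Ratios within a liver do not depend on how libraries are scaled. They use the same counts as the tests of single enzymes and are not separate evidence for those differences. For *Mat2a* to *Mat1a* the log2 ratio of counts was -5.44 ± 0.687 (SD, n = 6) in Cre Chow, -2.64 ± 0.524 (n = 5) in Cre MCD, -5.36 ± 0.665 (n = 5) in FLCN KO Chow and -3.17 ± 0.172 (n = 6) in FLCN KO MCD. *Mat1a* counts were thus 18.7 to 67.4 times those of *Mat2a* in Cre Chow livers and 3.79 to 10.2 times in Cre MCD livers. Diet groups did not overlap in either genotype (differences 2.79 ± 0.366 and 2.20 ± 0.305, each with a two-sided exact permutation p = 0.00216, the smallest possible with 462 arrangements, and 0.00577 adjusted over the 16 ratio tests). For *Gnmt* to *Mat1a* the log2 ratio was -0.60 ± 0.260 in Cre Chow, -2.14 ± 0.249 in Cre MCD, -0.78 ± 0.288 in FLCN KO Chow and -3.19 ± 0.184 in FLCN KO MCD. Between genotypes this ratio did not differ detectably on chow (difference -0.18 ± 0.167, exact permutation p = 0.294, adjusted p = 0.336). On MCD it was lower in every FLCN KO liver than in every Cre liver (difference -1.05 ± 0.134, exact permutation p = 0.00216, adjusted p = 0.00577). For *Cth* to *Cbs* the log2 ratio went from -0.70 ± 0.287 to 0.14 ± 0.278 in Cre (exact permutation p = 0.00216, adjusted p = 0.00577) and from -1.06 ± 0.332 to -0.18 ± 0.557 in FLCN KO (exact permutation p = 0.0260, adjusted p = 0.0594). *Bhmt2* to *Bhmt* passed in none of the 4 comparisons, with adjusted p between 0.112 and 0.342 in the exact permutation tests.

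**Figure D3:**
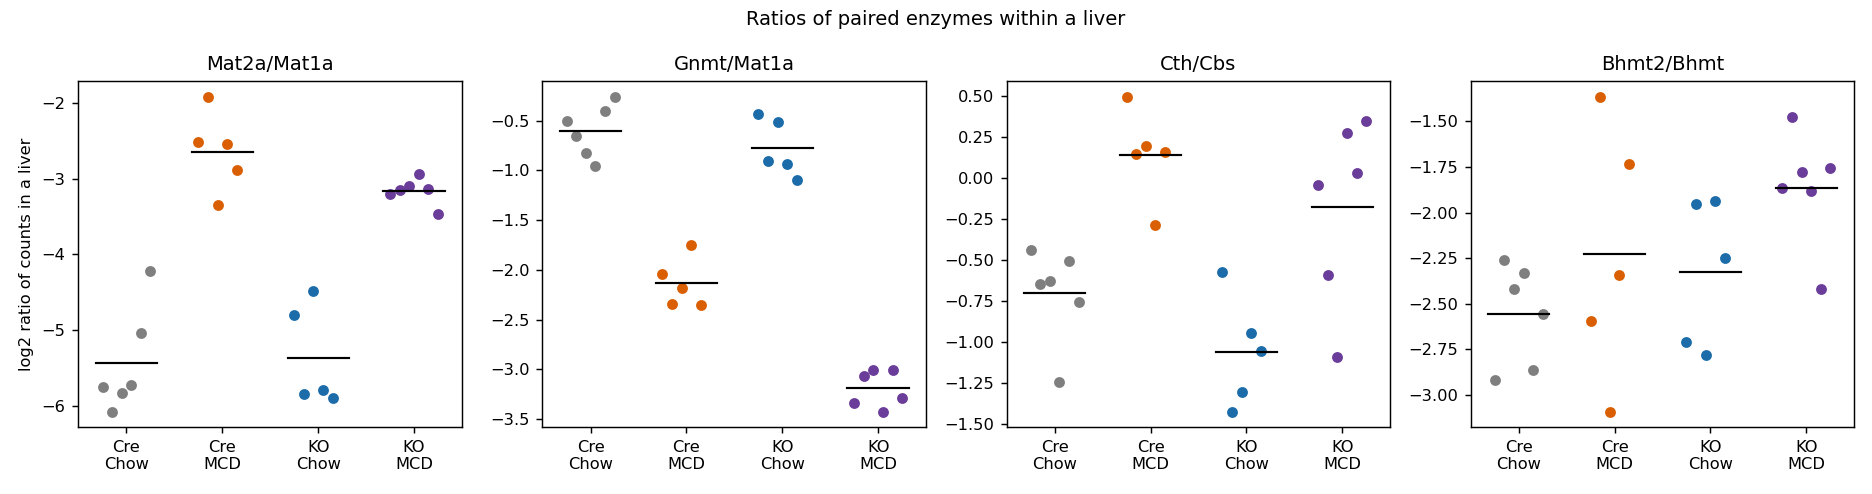
log2 ratio of counts of 2 enzymes within a liver, for each of the 22 livers by group, with a bar at the group mean. *Mat2a*/*Mat1a* is higher in all livers on MCD (at least -3.47) than on chow (at most -4.23), and *Gnmt*/*Mat1a* is lowest in FLCN KO MCD (-3.42 to -3.01).

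Loss of *Flcn* was set against Cre on each diet. On chow no enzyme was higher and 3 were lower in FLCN KO livers, *Gnmt*, *Ahcy* and *Cth*, where 5.45% of all tested genes were higher and 3.04% lower. The median log2FC of the 10 was -0.32, against -0.03 over all genes. *Gnmt* was lower in each FLCN KO Chow liver (at most 1608 CPM) than in each Cre Chow liver (at least 1713 CPM), with a log2FC of -0.58 ± 0.1496 (edgeR adjusted p = 0.0173). *Ahcy* (log2FC -0.44 ± 0.110, edgeR adjusted p = 0.0133) and *Cth* (-0.68 ± 0.197, edgeR adjusted p = 0.0339) overlapped between genotypes. None of the 3 was called without the 5 chow libraries of low mapped share (-0.51, -0.41 and -0.56 for *Gnmt*, *Ahcy* and *Cth*), a fit with fewer livers, nor by library size only. Within the Xist-high livers *Gnmt* was at -0.51 (edgeR adjusted p = 0.0886) and within the Y-high livers at -0.68 (edgeR adjusted p = 0.0989). The Xist-high chow livers are the same ones that remain without the 5 libraries. Leaving out FLCN KO Chow 3 put *Gnmt* at an edgeR adjusted p of 0.0510. Hepatocyte markers had a median log2FC of -0.28 between genotypes on chow (1 of 9 lower, 0 higher, all 9 values below 0), and periportal markers one of -0.37 (1 of 6 lower, 0 higher, all 6 below 0). Pericentral markers were at -0.06 (0 of 7 called), stellate markers at 0.35 (0 of 7 called) and lymphocyte markers at 0.89 (0 of 4 called, all 4 above 0). Endothelial markers were at 0.17 with 1 of 5 higher, *Stab2* (0.76), and cholangiocyte markers at 0.08 with 1 of 5 higher, *Spp1* (1.21). Macrophage (0.16, 0 of 7), neutrophil (0.28, 0 of 3) and muscle markers (1.23, 0 of 8) had no call. Their part in the enzyme differences was not tested.

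On MCD no enzyme was higher and 2 were lower in FLCN KO livers, *Gnmt* and *Mtr*, where 8.03% of all tested genes were higher and 8.46% lower. For *Gnmt* every FLCN KO MCD liver (at most 513 CPM) was below every Cre MCD liver (at least 566 CPM), at a log2FC of -0.82 ± 0.148 (1.77-fold, edgeR adjusted p = 6.11e-04). Within classes *Gnmt* was at -1.32 in Y-high livers (edgeR adjusted p = 0.00404) and -0.43 in Xist-high livers (edgeR adjusted p = 0.0874), and the difference between the classes was not tested. *Mtr* overlapped between genotypes (log2FC -0.35 ± 0.115, edgeR adjusted p = 0.0400). Its call was lost in 6 of 22 fits that left out 1 liver, each a liver on MCD, and in 6 of 12 other alternatives. *Bhmt2* did not overlap, with at least 315 CPM in FLCN KO MCD and at most 289 CPM in Cre MCD, but missed the threshold (log2FC 0.28 ± 0.0998, edgeR adjusted p = 0.0545). It was called by limma-voom and by DESeq2. *Cth* was at -0.53 ± 0.194 (edgeR adjusted p = 0.0641) and was called by DESeq2 and without the 5 chow libraries of low mapped share, and *Mat2a* at -0.32 ± 0.163 (edgeR adjusted p = 0.194). In order of mean level *Gnmt* thus ran Cre Chow, FLCN KO Chow, Cre MCD and FLCN KO MCD, with no neighbours overlapping. The groups of *Ahcy* and *Cbs* came in the same order but overlapped between genotypes on each diet. On MCD hepatocyte markers had a median log2FC of -0.07 between genotypes (0 of 9 called), pericentral markers -0.32 (2 of 7 lower) and periportal markers 0.17 (1 of 6 higher, 1 lower). Stellate markers were lower in FLCN KO for 5 of 7 genes (median -0.70), macrophage markers for 2 of 7 (-0.41) and muscle markers, high in Cre MCD 3, for 8 of 8. Endothelial markers (median 0.13) and cholangiocyte markers (-0.50) each had 1 of 5 higher, and neutrophil (-0.86, 0 of 3) and lymphocyte markers (-0.13, 0 of 4) had no call. The part of these markers in the enzyme differences was not tested.

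**Figure D4:**
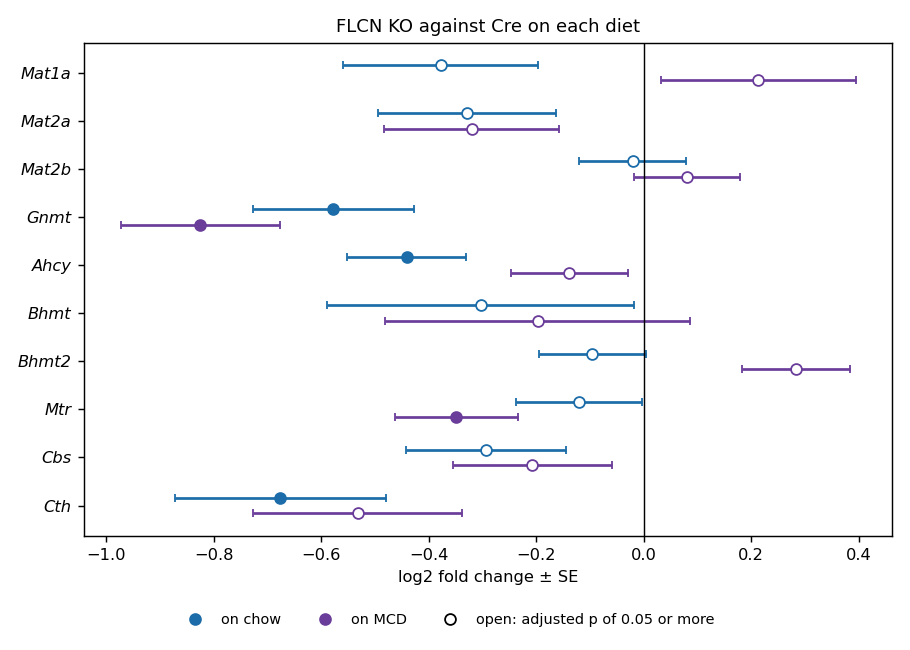
log2FC of FLCN KO against Cre (± SE, edgeR) for the 10 enzymes on chow (blue) and on MCD (purple), with filled points where the adjusted p was under 0.05. *Gnmt* is filled on both diets, at -0.58 and -0.82.

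The response to diet was then compared between genotypes by an interaction term. No enzyme passed (edgeR, limma-voom and DESeq2, 0 of 10 each), where 8.63% of all tested genes did. The lowest adjusted p-values of the 10 in edgeR were those of *Bhmt2* (difference of log2FC 0.38 ± 0.141, edgeR adjusted p = 0.0938) and *Mat1a* (0.59 ± 0.257, edgeR adjusted p = 0.156). *Mat1a* passed within the Xist-high livers (0.75, edgeR adjusted p = 0.0295), and *Bhmt2* without the 5 chow libraries of low mapped share (0.43, edgeR adjusted p = 0.0432). For *Mat2a* the difference was 0.01 ± 0.231.

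Genes around the cycle were described from 8 lists holding 66 genes, all tested. On MCD 19 rose and 27 fell in Cre, where 29.3 and 28.2% of all tested genes did, and 17 rose and 19 fell in FLCN KO, where 22.4% of all tested genes did in each direction, so that the count of risers was near the share over all genes. Choline oxidation and the disposal of its products, which lead to and from betaine, had 4 of 6 genes lower in each genotype (median log2FC -1.29 and -1.40). *Pipox*, which oxidises sarcosine and pipecolate, fell from 350 ± 30.3 CPM (SD, n = 6) to 30.6 ± 10.6 CPM (n = 5) in Cre (log2FC -3.51 ± 0.192, edgeR adjusted p = 6.27e-12) and fell by 2.82 on the log2 scale in FLCN KO. *Aldh7a1*, a betaine aldehyde dehydrogenase, fell by 1.78 and 1.96, *Slc44a1*, a choline transporter, fell by 1.45 and 1.30, and *Sardh*, sarcosine dehydrogenase, was lower too (-1.13 and -1.502). The betaine-making dehydrogenase *Chdh* was at -0.13 and 0.19 and did not pass. In the folate and cobalamin list 2 of 10 rose in each genotype and 5 and 4 fell. *Mthfd1*, which interconverts folates, fell by 1.26 and 0.96, *Shmt1*, serine hydroxymethyltransferase, fell by 1.17 and 0.73, and *Shmt2*, its mitochondrial form, fell by 0.53 and 0.70, while *Mmadhc*, a cobalamin carrier, rose by 0.59 and 0.62.

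The counts of the next lists stand beside 29.3% of all tested genes that rose and 28.2% that fell in Cre, and 22.4% each in FLCN KO. Downstream of cysteine 1 of 14 genes rose and 9 fell in Cre, and 2 rose and 5 fell in FLCN KO. *Gss*, glutathione synthetase, rose from 57.1 ± 20.3 to 236 ± 51.1 CPM in Cre (log2FC 2.04 ± 0.197, edgeR adjusted p = 2.26e-08) and by 1.48 in FLCN KO. The falls included *Cdo1*, cysteine dioxygenase (-1.503 and -0.75), *Ethe1*, which oxidises persulfide (-1.49 and -1.65), and *Suox*, sulfite oxidase (-1.23 and -0.99). On the branch from SAM to polyamines and back to methionine 5 of 9 rose and 3 fell in Cre, and 3 rose and 1 fell in FLCN KO. *Srm*, spermidine synthase, rose by 1.73 and 1.18, *Mtap*, which cleaves methylthioadenosine, by 0.49 and 0.23, and *Enoph1*, of the salvage pathway, by 0.40 and 0.73. *Kyat1* fell by 0.99 in Cre and by 0.55 in FLCN KO (edgeR adjusted p = 0.0476), where its call was lost in 16 of 22 fits that left out 1 liver. Among other small-molecule methyltransferases 1 of 9 rose and 2 fell in Cre, and 3 rose and 3 fell in FLCN KO. *Inmt* fell by 2.20 and 2.11 (-2.94 in Cre without Cre MCD 3, and not called in Y-high livers only in either genotype), *Gamt*, which makes creatine, by 1.59 and 1.64, and *Nnmt*, which methylates nicotinamide, by 1.37 in FLCN KO (-0.64 in Cre, edgeR adjusted p = 0.0602), and *Mettl7b* rose by 0.51 and 0.47. In the list of SAH and adenosine disposal 3 of 4 fell in Cre and 1 of 4 in FLCN KO, with *Adk*, adenosine kinase, at -0.91, *Ahcyl2* at -0.52 and *Ahcyl1* at -0.23 in Cre, and *Ahcyl2* at -0.63 in FLCN KO. By library size only *Ahcyl1* was at 0.20 in Cre, and the calls of *Ahcyl1* and *Ahcyl2* in Cre were lost without Cre Chow 1, among others. In FLCN KO the *Ahcyl2* call was lost by library size only and without the 5 chow libraries of low mapped share. Over the alternatives that *Ahcyl2* value ran from -1.02 to -0.26.

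Of the 4 regulators of *Mat2a* and *Mat1a* RNA, 1 rose and 1 fell in each genotype, near the share over all tested genes (29.3 and 28.2% in Cre, 22.4% each in FLCN KO). *Mettl16*, the methyltransferase known to act on *Mat2a* RNA when SAM is low, rose in Cre by 0.60 ± 0.132 (edgeR adjusted p = 5.53e-04) and was at 0.15 ± 0.133 in FLCN KO (edgeR adjusted p = 0.388). The *Mettl16* call in Cre was lost in Y-high livers only. *Ythdc1*, a reader of methylated RNA, fell by 0.48 and 0.35. Its calls were lost by library size only in both genotypes and in Y-high livers only in Cre. In FLCN KO the *Ythdc1* call was also lost without the 5 chow libraries of low mapped share and in Xist-high livers only. Its smallest falls over these alternatives were -0.0677 in Cre and -0.0822 in FLCN KO. *Hnrnpd* rose by 0.24 in FLCN KO, a call lost in 4 of 22 fits that left out 1 liver. The list of the amino acid response had 9 of 10 genes higher in Cre and 6 of 10 in FLCN KO (median log2FC 3.62 and 2.55), above those shares. *Psat1*, of serine synthesis, rose from 0.872 ± 0.382 to 53.9 ± 36.1 CPM in Cre and from 1.73 ± 0.869 to 40.6 ± 11.7 CPM in FLCN KO. *Asns*, asparagine synthetase, rose by 5.02 and 3.76 on the log2 scale, the former being 6.39 without Cre Chow 6, which was at 10.8 CPM against a group median of 1.03 CPM. *Slc7a11*, the cystine importer, had at most 1 count in any liver on chow and 60 to 149 counts in Cre MCD livers against 4 to 62 in FLCN KO MCD livers.

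**Figure D5:**
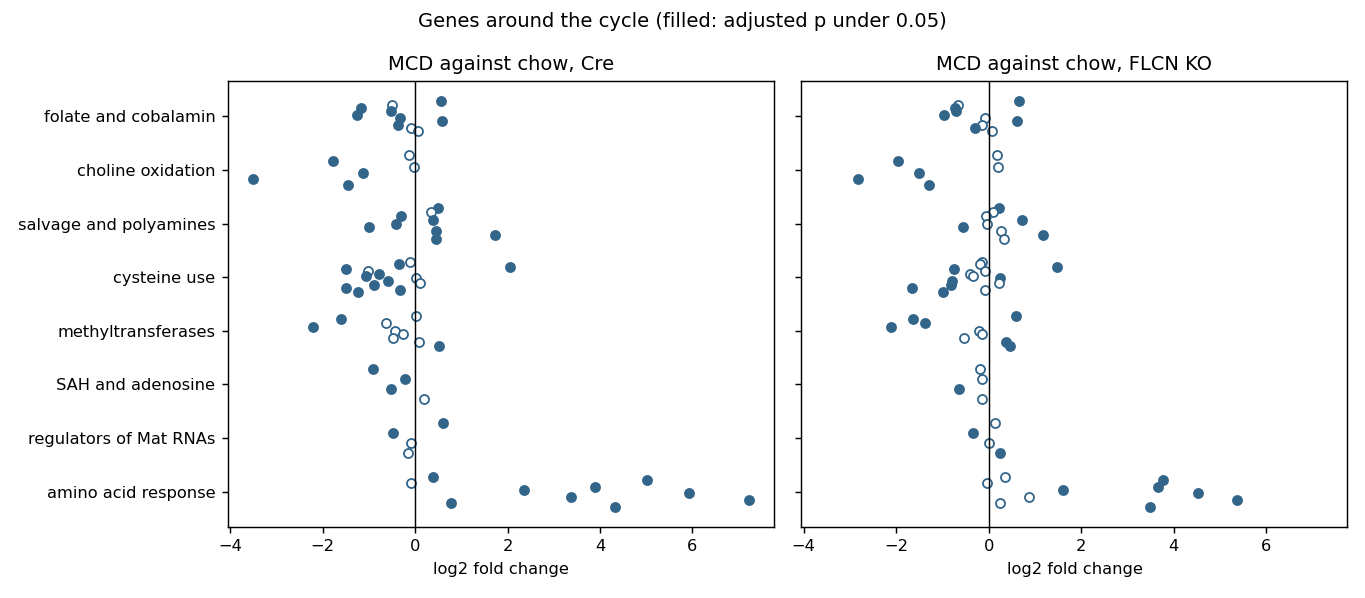
log2FC of MCD against chow for the 66 genes of 8 lists (1 point per gene) in Cre (left) and FLCN KO (right) mice, filled where the adjusted p was under 0.05. In the amino acid response list 9 of 10 points in Cre are filled to the right of 0, and in the choline oxidation list 4 of 6 are filled to the left in each genotype.

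Between genotypes 1 of the 66 was higher and 1 lower on chow, namely *Phgdh*, of serine synthesis, with 1 to 13 counts in FLCN KO Chow livers against 0 to 3 in Cre Chow livers, and *Mmadhc* (log2FC -0.27 ± 0.0804, edgeR adjusted p = 0.0413). Leaving out 1 liver ended the call of *Phgdh* in 5 and that of *Mmadhc* in 11 of 22 fits. On MCD 4 were higher and 6 lower in FLCN KO. With 5.45 and 3.04% of all tested genes called on chow and 8.03 and 8.46% on MCD, these counts were not above the share over all genes on chow and near it on MCD. The higher ones were *Shmt1* (0.60), *Adk* (0.51), *Adi1*, of methionine salvage (0.47), and *Pemt*, which makes phosphatidylcholine with SAM (0.39). The lower ones were *Slc7a11* (-1.77), the hormone gene *Fgf21* (-1.59), *Nnmt* (-1.33), *Sardh* (-0.51), *Shmt2* (-0.35) and *Mmadhc* (-0.24). Of these, leaving out 1 liver ended the call of *Mmadhc* in 11, of *Pemt* in 7, of *Sardh* in 4 and of *Fgf21* in 1 of 22 fits. In Y-high livers only all but *Nnmt* and *Sardh* lost their call. In Xist-high livers only *Nnmt*, *Sardh*, *Mmadhc*, *Pemt* and *Fgf21* lost theirs. The *Slc7a11* call was also lost with only the groups compared in the fit, and its value ran from -3.81 to -0.91 over the alternatives. Further alternatives ended the calls of *Mmadhc*, *Pemt* and *Fgf21* too.

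Across the 22 livers the genes most like *Mat2a* in log2 CPM, of 12847 genes with a mean of at least 1 CPM, were *Slc20a1*, a phosphate transporter (Pearson r = 0.976), *Trib3*, a pseudokinase of the stress response (0.971), and *Cyp4a31*, a cytochrome P450 (0.971). Those most like *Gnmt* were *Sema4g* (0.983), *Gstm7* (0.980) and *Tmem63a* (0.977). The livers share the diet and genotype groups, so these values describe likeness over the groups as much as between livers. *Slc20a1* went from a mean of 27.6 to 171 CPM with MCD in Cre and from 26.3 to 129 CPM in FLCN KO, and *Tmem63a* from 19.3 to 5.82 CPM and from 14.2 to 3.95 CPM.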

How the data were processed

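Livers were profiled by single-end mRNA-seq with UMI adapters. The authors demultiplexed reads with bcl2fastq, trimmed them with Trimmomatic, aligned them to GRCm38 with STAR and counted them per gene with HTSeq, and deposited the raw counts, which were used as deposited. Versions, the annotation release, the strand setting and whether UMIs were collapsed are not given in the sources used here, and uncollapsed duplicates would make counting error too small. The 22 totals ran from 13751347 to 21144388 counts.

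A gene was tested if its counts averaged 10 or more over all libraries, with the quasi-likelihood test of edgeR 4.0.16 (R 4.3.3, robust, TMM factors) in 1 fit of the 4 groups, with contrasts for diet within genotype, genotype within diet and their interaction. P-values were adjusted by Benjamini-Hochberg over all 14062 tested genes, and adjusted p under 0.05 was called. Ratios were compared by two-sided exact permutation tests over livers. The plan gave ratios as values only, and these tests were added to it. Alternatives used limma 3.58.1 (voom), DESeq2 1.42.0, other scalings and filters, the Xist or Y class as a covariate, a replicate block, and each liver left out. The edgeR steps were tested on simulated data with 200 changed genes. Many more genes were called for diet here, so that test does not cover the scaling between diets. TMM factors were 0.815 to 0.969 on chow and 1.06 to 1.20 on MCD.

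The 10 enzymes, the gene lists and the markers were chosen with earlier results of these data known. Named genes are the 10 enzymes, *Flcn*, per list and comparison up to 3 called genes of largest log2FC, the most abundant gene of each marker list, and the 3 genes most like *Mat2a* and *Gnmt*. *Chdh*, *Apob* and *Des* were added after their values were seen. Gene copies were found with blastn 2.17.0 (95% identity over 500 bases). Each group's livers are separate mice.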

Additional observations from a re-analysis of the deposited data

Results flagged for a closer look

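*Mat2a* in Cre MCD 2 stood at 757 CPM, apart from the other 4 livers of its group, the next of which was at 518 CPM. *Bhmt2* in FLCN KO Chow 1 stood at 379 CPM with the next liver at 312 CPM. These are 2 of 44 groups of enzyme or *Flcn* values examined, and chance marks about 1 in 20 such groups. In edgeR's interaction test, 3 of the 66 pathway genes differed between the genotypes in their diet response, below the share over all tested genes (8.63%). *Adk*, adenosine kinase, had a difference of log2FC (FLCN KO minus Cre) of 0.72 ± 0.144 (SE, edgeR adjusted p = 0.00418). *Hnrnpd*, an RNA-binding protein gene, had one of 0.39 ± 0.123 (edgeR adjusted p = 0.0485), and its call was lost in 18 of 22 fits that left out 1 liver and in 8 of 11 other alternatives, among them other scalings and filters. *Phgdh* had one of -2.49 ± 0.728 (edgeR adjusted p = 0.0356), with 0 to 3 counts in Cre Chow livers and 9 to 47 in Cre MCD livers. Its call was lost in 9 of 22 fits that left out 1 liver, with limma-voom, without the 5 chow libraries of low mapped share, under a block on replicate number and in Y-high livers only. That of *Adk* was lost in Y-high livers only.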

How the results depend on the processing

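The diet differences of *Mat2a*, *Gnmt*, *Ahcy* and *Cbs* kept their direction and stayed past the threshold in both genotypes under every alternative run, including each fit that left out 1 liver. Among calls that did not hold were those between genotypes on chow, *Mtr* on MCD, *Gnmt* on MCD in Xist-high livers only (-0.43), *Mat1a* for diet in FLCN KO without the 5 chow libraries of low mapped share (0.31), and, in Y-high livers only, *Mat2b* for diet in both genotypes and *Bhmt2* for diet in Cre. The fit without those 5 libraries sets only Xist-high livers on chow against both classes on MCD. On chow *Slc7a11* had at most 1 count and *Phgdh* at most 13 counts in a library, so that their fitted values rest on few reads. The counts below are those of genes called higher or lower where they moved past 1.5 times, against the counts in the report, in the order higher and lower, of 2 and 4 enzymes, 19 and 27 pathway genes and 4119 and 3959 of all genes for diet in Cre, 3 and 3, 17 and 19, and 3144 and 3148 for diet in FLCN KO, 0 and 3, 1 and 1, and 766 and 427 for genotype on chow, 0 and 2, 4 and 6, and 1129 and 1189 for genotype on MCD, and 0 and 0, 2 and 1, and 451 and 762 for the interaction. The cause of a change was not tested, beyond the smaller number of livers where some were left out.

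With limma-voom, the count of calls was 0 pathway genes higher for genotype on chow, 1 enzyme higher and 10 pathway genes lower for genotype on MCD, 0 pathway genes lower for the interaction. With DESeq2, the count of calls was 2 pathway genes lower for genotype on chow, 1 enzyme higher and 11 pathway genes lower for genotype on MCD, 7 pathway genes higher for the interaction. With DESeq2's size factors (RLE) in edgeR, the count of calls was 1 pathway gene higher for the interaction. With no filter on low counts, the count of calls was 0 pathway genes lower and 171 of all genes lower for genotype on chow, 1 enzyme lower for genotype on MCD, 1 pathway gene higher and 215 of all genes higher for the interaction. Signs turned for *Mat2b* 0.0086 (genotype on chow), *Mat2a* -0.0086 (the interaction). Where each library had to hold 10 counts or more of a gene, the count of calls was 0 pathway genes higher, 0 pathway genes lower and 281 of all genes lower for genotype on chow, 1 pathway gene higher and 0 pathway genes lower for the interaction. Values of the other sign were *Mat1a* 0.0239 (diet in Cre), *Mat2b* 9e-04 (genotype on chow), *Mat2a* -0.0248 (the interaction). With only the groups compared in the fit, the count of calls was 0 pathway genes higher for genotype on chow, 1 enzyme higher and 1 enzyme lower for genotype on MCD. Signs turned for *Mtr* -4e-04 (diet in FLCN KO), *Mat2b* 0.0041 (genotype on chow). With the Xist or Y class as a covariate, the count of calls was 2 pathway genes higher for genotype on chow, 4 pathway genes higher for the interaction. Values of the other sign were *Mtr* -0.0023 (diet in FLCN KO), *Mat2a* -0.0139 (the interaction). Without the 5 chow libraries of low mapped share, the count of calls was 380 of all genes higher, 0 enzymes lower, 0 pathway genes lower and 115 of all genes lower for genotype on chow, 1 enzyme higher and 8 pathway genes higher for genotype on MCD, 1 enzyme higher, 294 of all genes higher and 452 of all genes lower for the interaction. Signs turned for *Mat2b* 0.0621 (genotype on chow), *Mat2a* -0.0328 (the interaction).

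By library size only, the count of calls was 32 pathway genes higher, 7877 of all genes higher, 15 pathway genes lower and 1740 of all genes lower for diet in Cre, 28 pathway genes higher, 5787 of all genes higher and 1718 of all genes lower for diet in FLCN KO, 5 pathway genes higher, 1433 of all genes higher, 0 enzymes lower, 0 pathway genes lower and 123 of all genes lower for genotype on chow, 1 pathway gene higher, 171 of all genes higher, 2 pathway genes lower and 1215 of all genes lower for the interaction. Values of the other sign were *Mat1a* 0.39, *Bhmt2* 0.0995, *Flcn* 0.30 and *Ahcyl1* 0.20 (diet in Cre), *Mat2b* 0.13, *Bhmt2* 0.0539 and *Mtr* 0.0249 (genotype on chow), *Mat2a* -0.16, *Mat2b* -0.0602, *Bhmt* -0.049, *Cbs* -0.0704 and *Cth* -0.0193 (the interaction).

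The fits within a class were chosen after seeing the data. In Xist-high livers only, the count of calls was 464 of all genes higher, 0 enzymes lower, 0 pathway genes lower and 157 of all genes lower for genotype on chow, 1 enzyme higher, 8 pathway genes higher and 0 enzymes lower for genotype on MCD, 1 enzyme higher, 7 pathway genes higher and 2 pathway genes lower for the interaction. Signs turned for *Bhmt* 0.11 and *Mtr* -0.0633 (diet in FLCN KO), *Mat2b* 0.062 (genotype on chow), *Mat2b* -0.0038, *Bhmt* 0.30, *Cbs* 0.0187 and *Flcn* 0.24 (genotype on MCD), *Mat2a* -0.10, *Mat2b* -0.0659 and *Gnmt* 0.0806 (the interaction). In Y-high livers only, the count of calls was 1 enzyme higher, 11 pathway genes higher, 2561 of all genes higher and 2093 of all genes lower for diet in Cre, 1305 of all genes higher and 1621 of all genes lower for diet in FLCN KO, 0 pathway genes higher, 304 of all genes higher, 0 enzymes lower, 0 pathway genes lower and 59 of all genes lower for genotype on chow, 0 pathway genes higher, 310 of all genes higher, 1 enzyme lower and 394 of all genes lower for genotype on MCD, 0 pathway genes higher, 6 of all genes higher, 0 pathway genes lower and 68 of all genes lower for the interaction. Values of the other sign were *Mat1a* 0.35 and *Flcn* 0.13 (diet in Cre), *Bhmt2* -0.0943 (diet in FLCN KO), *Bhmt2* 0.0132 (genotype on chow), *Mat1a* -0.0573 (genotype on MCD), *Bhmt* -0.71 and *Cbs* -0.0429 (the interaction).

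Replicate numbers are shared between groups. Correlations of the deviations of same-numbered livers from their group means ran from -0.136 to -0.0146 (mean -0.0842) for diet in Cre, from -0.187 to 0.21 (mean -0.0112) for diet in FLCN KO, from -0.551 to 0.47 (mean 0.0614) for genotype on chow and from 0.0621 to 0.262 (mean 0.129) for genotype on MCD, over 5 pairs each. In no comparison were all pairs over 0.1, and the numbers were not taken to pair livers. Under a block on replicate number, the count of calls was 233 of all genes lower for genotype on chow, 1 enzyme higher and 1 enzyme lower for genotype on MCD, 1 pathway gene higher, 206 of all genes higher, 0 pathway genes lower and 360 of all genes lower for the interaction. Signs turned for *Mat2b* 0.0344 (genotype on chow), *Mat2a* -0.0954 and *Mat2b* -7e-04 (the interaction). *Bhmt* for diet in Cre became called under it (-0.65).

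Leaving out each liver in turn gave these ranges, as a count or a log2FC. For diet in Cre they were *Mat1a* -0.15 to 0.0492 and *Flcn* -0.26 to 0.0117. For diet in FLCN KO they were *Mtr* -0.0571 to 0.0584. For genotype on chow they were pathway genes higher 0 (without Cre Chow 5 or Cre Chow 6 or FLCN KO Chow 4) to 2 (without FLCN KO Chow 2), all genes higher 503 (without FLCN KO Chow 4) to 865, enzymes lower 1 (without FLCN KO Chow 3) to 3, pathway genes lower 0 to 3 (without Cre MCD 2), all genes lower 164 (without FLCN KO Chow 4) to 545 and *Mat2b* -0.0624 to 0.0556. For genotype on MCD they were enzymes higher 0 to 1 (without Cre Chow 1 or Cre Chow 6 or FLCN KO Chow 1), enzymes lower 1 to 3 and *Bhmt* -0.38 to 0.0704. For the interaction they were enzymes higher 0 to 1 (without Cre Chow 6 or FLCN KO Chow 1), pathway genes higher 1 to 5 (without Cre MCD 3), all genes higher 269 (without Cre MCD 1) to 586, pathway genes lower 0 to 1, *Mat2a* -0.14 to 0.18, *Bhmt* -0.0922 to 0.37 and *Cbs* -0.0186 to 0.16. Of single livers, leaving out FLCN KO Chow 3 ended the *Gnmt* call on chow, leaving out Cre Chow 1, 2, 3 or 5 or FLCN KO Chow 2, 3, 4 or 5 that of *Cth* on chow, and leaving out Cre MCD 1, 2 or 3 or FLCN KO MCD 2, 3 or 5 that of *Mtr* on MCD. Without Cre MCD 3, the liver with the most muscle RNA, *Bhmt* passed for diet in Cre at -0.82. *Cth* passed for diet in Cre without Cre Chow 4, Cre Chow 6, Cre MCD 1 or FLCN KO Chow 3, and for genotype on MCD without Cre Chow 4 or FLCN KO MCD 5. *Mtr* passed for diet in Cre without Cre MCD 5.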
